A study of Mus musculus with 12 samples.

Results

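The collagen genes of mouse myocardium were followed through myocardial infarction (MI) and a weekly course of prednisone, a synthetic glucocorticoid. They were chosen by name: every gene symbol made of Col, a number, the letter a and a number, which gave 44 of the 33641 gene symbols in the transcript table. All animals were male wild-type C57BL/6 mice, described as about 10 weeks old for the treatment and about 16 weeks old in the sample notes, with 3 mice in each of 4 groups. The groups were sham surgery with vehicle, sham surgery with prednisone, MI surgery with vehicle and MI surgery with prednisone. Prednisone was injected into the peritoneum at 1 mg/kg in 100 µl of phosphate-buffered saline, at the time of lights-on, weekly over 6 weeks. Dosing began 2 weeks after the operation, and hearts were collected 24 hours after the final injection. The labels do not state which region of the heart was taken relative to the scar, so the mix of scar, border and remote muscle in an MI sample is unknown.

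Collagens are trimers of chains wound into a triple helix, and they form families by how those trimers assemble. Fibrillar collagens such as types I and III build the tensile fibres of heart muscle and of the scar that replaces it after an infarct. Type IV forms the sheet-like network of basement membranes around cardiomyocytes and capillaries, type VI forms beaded filaments next to it, and type VIII forms short-chain networks in remodelling tissue and vessel walls. Fibril-associated collagens (FACITs) coat fibrils, and the multiplexins XV and XVIII link basement membranes to the surrounding matrix. In the heart most fibrillar collagen RNA comes from fibroblasts, which take on an activated, matrix-producing state after injury, while glucocorticoids are known to lower collagen synthesis in several tissues.

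Levels are given in TPM, a transcript's length-corrected share of its library scaled to a fixed total. A gene's value is the sum over its transcripts. Of the 44 collagen genes, 25 reached 1 TPM in at least 3 of the 12 libraries and were tested. They comprised 8 of 11 fibrillar genes, 5 of 6 type IV genes, 4 of 6 type VI genes, 2 of 3 type VIII and X genes, 3 of 9 FACIT genes, both multiplexins and 1 of 4 transmembrane collagens. The type VII gene and the remaining pair, Col26a1 and Col28a1, were not tested. Among the 19 untested genes, no mean over the 12 libraries exceeded 0.91 TPM. The tested genes Col4a3, Col8a2 and Col12a1 reached 1 TPM in no sham library, so they passed the filter only through infarcted hearts. Col11a2, Col23a1 and Col27a1 reached 1 TPM in fewer than 3 sham libraries, so they also needed infarcted hearts to pass. Calls of any of these genes as higher than sham are therefore no added support. Without the MI vehicle libraries Col8a2 and Col12a1 would not have passed, so their falls from MI vehicle hearts are no added support either. Changes are log2 differences of TPM + 1, tested with limma, and a gene was called at a Benjamini-Hochberg adjusted p under 0.05 over all 13158 tested genes.

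Some library-wide properties touch every value below. Read numbers are unknown, since TPM does not carry them. Between 11690 and 14307 genes reached 1 TPM per library, and mitochondrially encoded transcripts took 21.6% to 42.0% of TPM. MI vehicle replicate 3 stood apart, with the highest number of detected genes and a median gene 0.74 log2 units above the sham vehicle mean. The MI prednisone libraries differed from the others along another axis: across 11513 genes, Spearman's rho between transcript length and a gene's deviation was -0.39, -0.40 and -0.26 in them, and between -0.12 and 0.24 in the other 9 libraries. Cardiomyocyte markers summed to between 22585 and 37855 TPM in the 12 libraries, and 5 atrial markers summed to between 855 and 6191 TPM. Nothing in the labels says whether the RNA of different mice was prepared or sequenced together.

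The collagen genes together took more of the library in infarcted hearts given vehicle than in any other group. Summed collagen RNA was 638, 1042 and 793 TPM in MI vehicle hearts, 308, 355 and 274 TPM in sham vehicle hearts, 364, 354 and 395 TPM in sham prednisone hearts, and 419, 364 and 348 TPM in MI prednisone hearts. The 3 MI vehicle libraries thus lay above the other 9, and the MI prednisone libraries lay within or close to the range of sham hearts. Fibrillar genes made up 50.7% ± 3.02 (SD, n = 3) of collagen TPM in MI vehicle hearts, against 39.3% ± 3.24, 40.6% ± 2.20 and 37.3% ± 4.77 in sham vehicle, sham prednisone and MI prednisone hearts. Type IV genes made up 25.7% ± 1.34 in MI vehicle hearts and between 33.2% and 35.3% on average elsewhere. These are samples of tissue in bulk, so fewer cells of a type and less RNA per cell cannot be told apart.

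**Figure D1:**
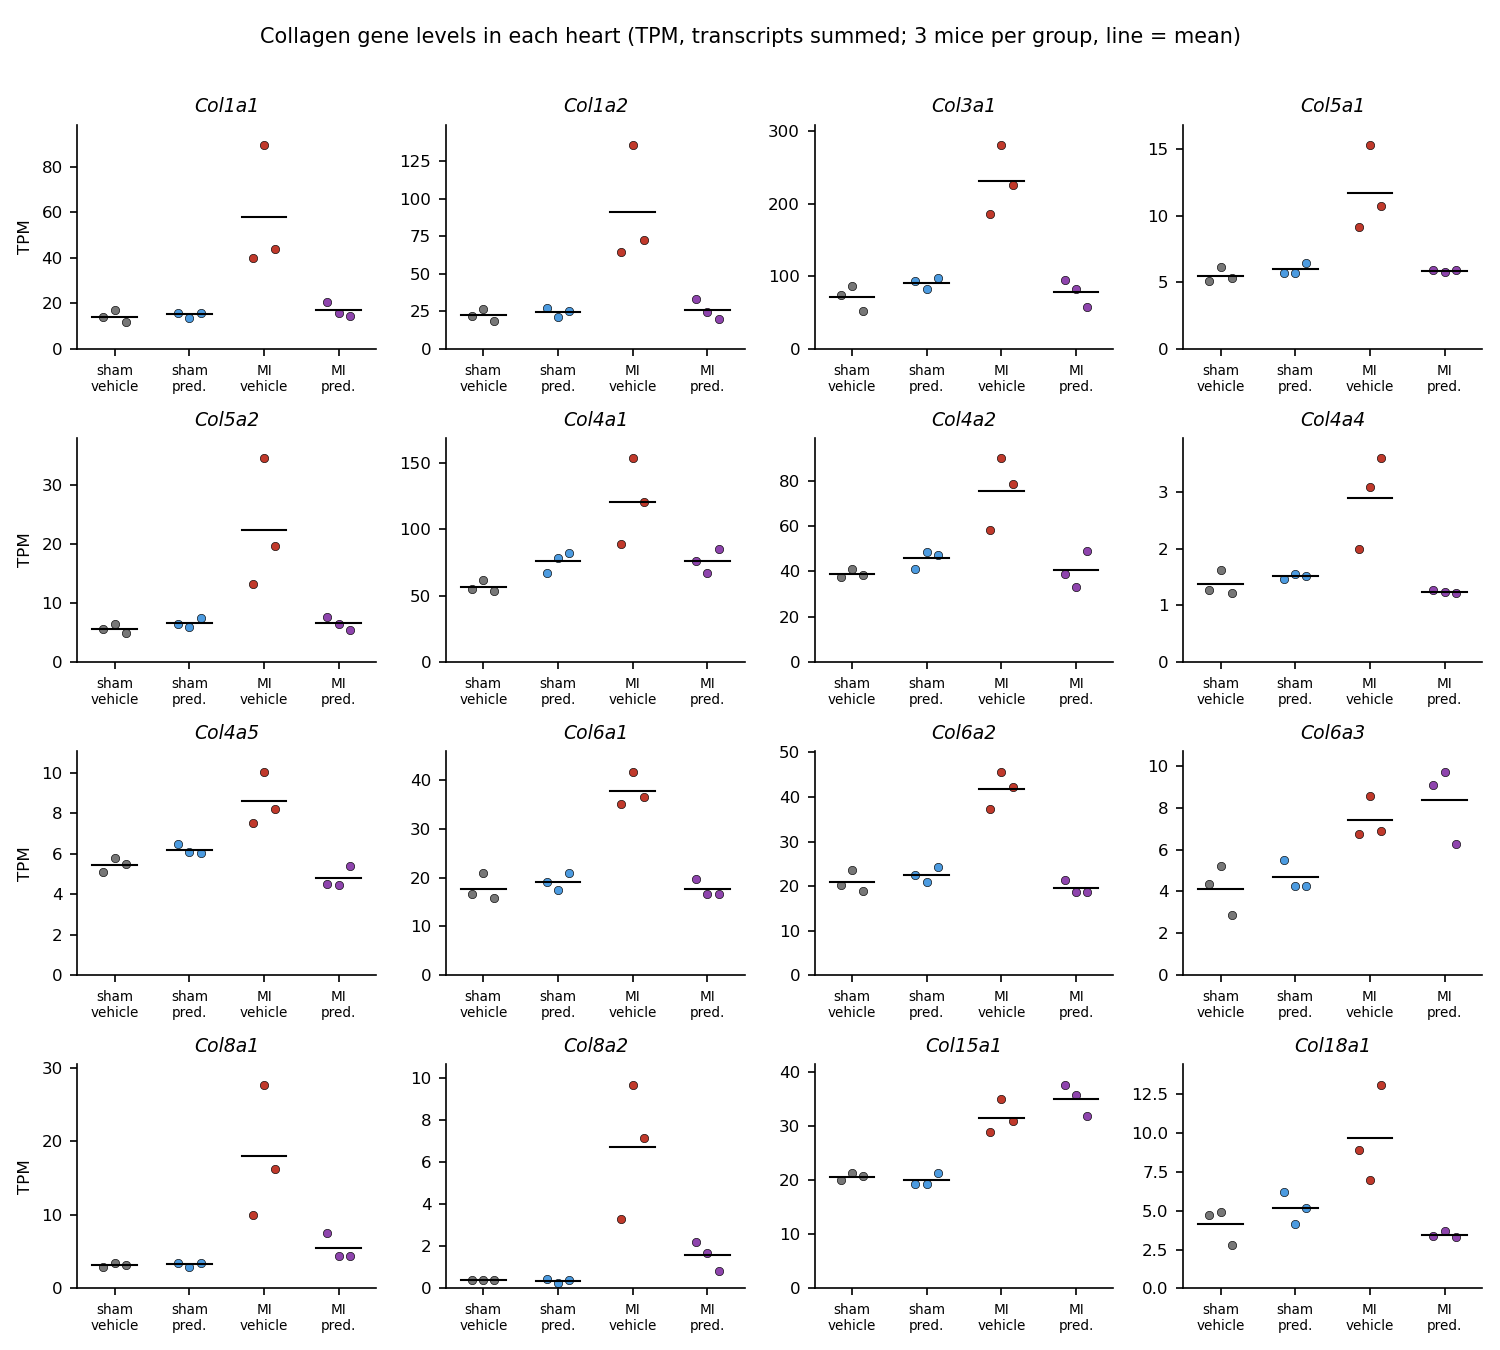
TPM (linear axes from 0) of 16 collagen genes in each of the 12 hearts, one panel per gene; points are mice and lines are group means. MI vehicle hearts stand above sham hearts in every panel, and MI prednisone hearts lie near sham hearts in most panels but not for Col6a3, Col8a1, Col8a2 and Col15a1.

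The first comparison asked what infarction did to collagen RNA without drug. In vehicle hearts 21 of the 25 tested collagen genes rose after MI and none fell, where 16.0% of all tested genes were called and 15.1% were called higher. The members' median change was 0.96 and that of all genes 0.39, and the members are read against that shift. The 4 genes not called were Col27a1, which changed by 0.71 (adjusted p = 0.0504), and Col11a2 (0.31), Col5a3 (0.19) and Col6a6 (-0.29). MI and sham libraries did not overlap, with MI higher, for 22 of the 25 tested genes, where 40.8% of all tested genes did the same. Col4a3, Col8a2, Col12a1 and Col23a1, which needed infarcted hearts to pass the filter, are in both counts, and Col27a1 is in the second.

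Type I collagen, the main load-bearing fibril, is built from the chains of Col1a1 and Col1a2. Col1a1 (chromosome 11, 94936224 to 94953042, GRCm38) was at 13.9, 16.9 and 11.8 TPM in sham vehicle hearts and at 40.1, 89.5 and 44.1 TPM in MI vehicle hearts. The groups did not overlap, and replicate 2 was highest among the MI hearts. The means differed 4.07-fold, and the log2 change was 1.87 ± 0.26 (SE; adjusted p = 0.00526). Col1a2 (chromosome 6, 4504814 to 4541544) went from 21.9, 26.7 and 18.7 TPM to 64.8, 135 and 72.4 TPM, with the same mouse highest. Its log2 change was 1.91 ± 0.26 (adjusted p = 0.00526).

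Col3a1 (chromosome 1, 45311538 to 45349706) encodes type III collagen, which forms finer fibrils together with type I, and it had the highest mean TPM of the collagen genes over the 12 libraries. Col4a1 exceeded it in sham vehicle replicate 3 and MI prednisone replicate 3. It measured 74.3, 86.1 and 52.7 TPM in sham vehicle hearts and 186, 280 and 225 TPM in MI vehicle hearts, all 3 of them above every sham heart. The log2 change was 1.69 ± 0.22 (adjusted p = 0.00505). Type V collagen sits inside type I fibrils and limits their diameter. Col5a2 rose from 5.59, 6.41 and 4.93 TPM to 13.2, 34.6 and 19.7 TPM, a log2 change of 1.73 ± 0.27 (adjusted p = 0.00693). Its partner Col5a1 rose less, from 5.12, 6.12 and 5.29 TPM to 9.13, 15.3 and 10.7 TPM, a log2 change of 0.94 ± 0.16 (adjusted p = 0.00977). A further type V chain, Col5a3, was not called.

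The largest rises on the log2 scale belonged to type VIII collagen, whose chains form hexagonal networks in vessels and injured tissue. Col8a1 was at 2.94, 3.41 and 3.17 TPM in sham vehicle hearts and at 9.92, 27.7 and 16.2 TPM after MI, a log2 change of 2.07 ± 0.30 (adjusted p = 0.00534). Col8a2 was barely present in sham vehicle hearts, at 0.393, 0.410 and 0.383 TPM, and reached 3.30, 9.66 and 7.12 TPM after MI. The means of Col8a2 differed 16.9-fold, while its log2 change of TPM + 1 was 2.37 ± 0.31 (adjusted p = 0.00505), since the added 1 compresses changes of low genes. In both genes all MI hearts lay above all sham hearts, and the spread among MI hearts was wide.

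Basement membrane collagen moved by smaller steps. Col4a1, one chain of the common type IV trimer, was at 55.3, 61.8 and 53.5 TPM in sham vehicle hearts and at 88.7, 153 and 120 TPM in MI vehicle hearts, a log2 change of 1.04 ± 0.18 (adjusted p = 0.00909). Col4a2, its partner in the same trimer, went from 37.4, 40.9 and 38.5 TPM to 58.3, 89.9 and 78.7 TPM, a log2 change of 0.92 ± 0.17 (adjusted p = 0.0114). Both rose without overlap between groups. The gene pair lies head to head on chromosome 8, Col4a1 at 11198423 to 11312826 on the minus strand and Col4a2 at 11312805 to 11449287 on the plus strand, so that their annotated ends overlap by 22 bases. The less common chains Col4a4 and Col4a5, known from kidney basement membrane, rose by 0.69 ± 0.17 and 0.56 ± 0.13 (adjusted p = 0.0278 and 0.0216). Col4a4 went from 1.28, 1.63 and 1.21 TPM to 1.98, 3.08 and 3.59 TPM, and Col4a5 from 5.11, 5.80 and 5.48 TPM to 7.54, 10.1 and 8.21 TPM. Col4a3, which joins these chains in one trimer, rose by 0.80 (adjusted p = 0.0475). All 5 tested type IV genes were thus called, though Col4a3 passed the filter only through infarcted hearts.

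Type VI collagen forms the beaded filaments that link cells and basement membrane to fibrils, and 3 of its 4 tested chains rose. Col6a1 went from 16.7, 20.9 and 15.8 TPM to 35.1, 41.8 and 36.6 TPM (log2 change 1.06 ± 0.13, adjusted p = 0.00505). Col6a2 went from 20.2, 23.6 and 19.0 TPM to 37.3, 45.7 and 42.2 TPM (log2 change 0.96 ± 0.12, adjusted p = 0.00505). Both chains were tight within groups. Col6a3, the long chain of the trimer, went from 4.34, 5.22 and 2.85 TPM to 6.76, 8.54 and 6.89 TPM (log2 change 0.73 ± 0.21, adjusted p = 0.0399). Col6a6, an alternative to that long chain, was at 1.14 to 1.38 TPM in sham vehicle hearts and 0.314 to 1.52 TPM after MI, and was not called.

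The remaining called genes were FACITs, multiplexins and a transmembrane collagen. Col12a1, Col14a1 and Col16a1, which decorate fibril surfaces, rose by 1.57, 1.46 and 1.43. Col18a1, the precursor of the anti-angiogenic fragment endostatin, was at 4.71, 4.91 and 2.78 TPM in sham vehicle and 8.88, 7.01 and 13.1 TPM in MI vehicle hearts, a log2 change of 1.04 ± 0.23 (adjusted p = 0.0192). Col15a1, its close relative, moved over a narrower range, from 20, 21.3 and 20.8 TPM to 28.9, 35.1 and 30.9 TPM (log2 change 0.58 ± 0.11, adjusted p = 0.0113). All 3 MI hearts exceeded all sham hearts for both multiplexins. Col23a1, a transmembrane collagen, rose by 0.64, though it needed infarcted hearts to pass the filter.

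The count depended on library scaling and on single libraries. When each library was rescaled by the median ratio of its genes, 9 collagen genes were called, where 6.46% of all genes were: Col8a2, Col8a1, Col1a2, Col1a1, Col5a2, Col12a1, Col3a1, Col14a1 and Col18a1. All 9 were higher, while the split over all genes moved from 1981 higher and 119 lower to 426 and 424. After a correction of each library for its own trend with transcript length 10 were called, all higher, where 5.36% of genes were. Without sham vehicle replicate 1 or 3 the count was 9 and 8. The share of all genes called in those fits is not given here, so a drop in calls over the whole table cannot be told apart. With only the 2 groups in limma's fit it was 0, with 22 at an unadjusted p under 0.05, where 0.0152% of all genes were called.

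**Figure D2:**
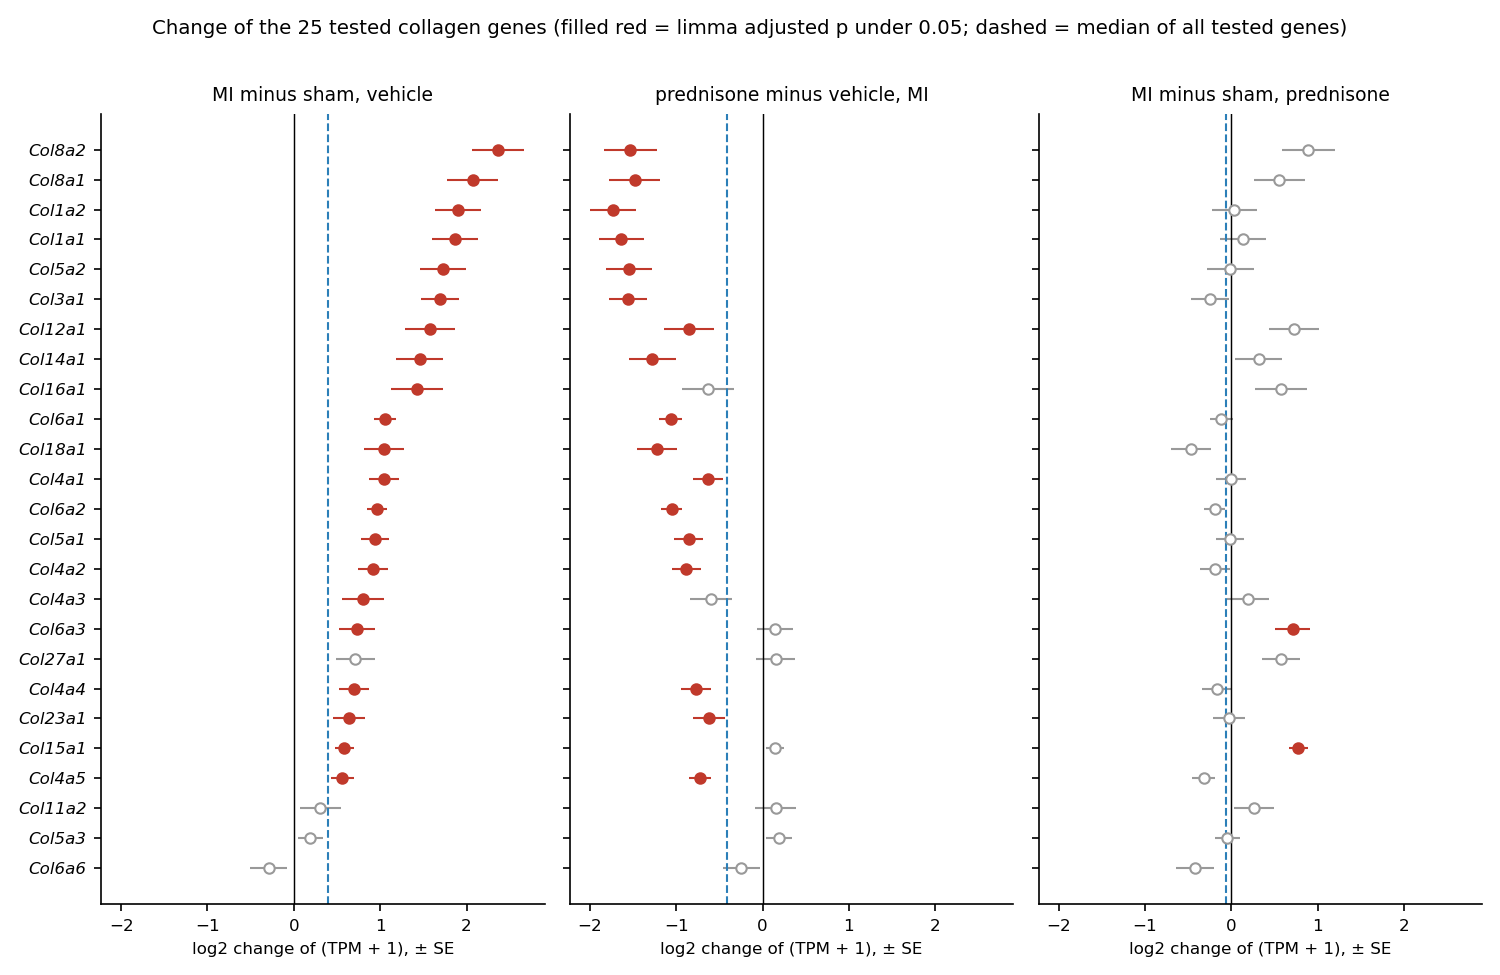
Log2 change of TPM + 1 (x axis, ± SE) of the 25 tested collagen genes in 3 comparisons; filled red points were called by limma, and the dashed line is the median of all tested genes. After MI 21 genes rose in vehicle hearts, 17 fell with prednisone after MI, and 2 were higher than sham under prednisone.

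Upstream sequences are shown for 3 members as examples. Col8a1 rose strongly after MI and fell with prednisone, and Col3a1 was the highest on average. Col15a1 is 1 of several members whose summed level was not called lower with prednisone. Only windows that overlap no annotated exon were shown. Each is the 250 bases before the RefSeq start site (GRCm38.p6), read 5′ to 3′ on the gene's strand, with capitals marking TATAAA or CCAAT or GGGCGG on either strand.
Col8a1, chr16:57754738-57754987, minus strand: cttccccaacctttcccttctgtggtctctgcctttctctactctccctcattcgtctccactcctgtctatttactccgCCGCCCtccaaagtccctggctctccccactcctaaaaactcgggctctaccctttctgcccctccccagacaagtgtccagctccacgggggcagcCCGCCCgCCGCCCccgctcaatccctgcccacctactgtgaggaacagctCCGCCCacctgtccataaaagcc
Col3a1, chr1:45311288-45311537, plus strand: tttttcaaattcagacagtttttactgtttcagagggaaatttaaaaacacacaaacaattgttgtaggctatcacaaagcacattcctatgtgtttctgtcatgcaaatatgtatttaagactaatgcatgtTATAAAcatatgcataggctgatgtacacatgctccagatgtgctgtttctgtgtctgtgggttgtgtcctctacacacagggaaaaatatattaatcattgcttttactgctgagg
Col15a1, chr4:47207762-47208011, plus strand: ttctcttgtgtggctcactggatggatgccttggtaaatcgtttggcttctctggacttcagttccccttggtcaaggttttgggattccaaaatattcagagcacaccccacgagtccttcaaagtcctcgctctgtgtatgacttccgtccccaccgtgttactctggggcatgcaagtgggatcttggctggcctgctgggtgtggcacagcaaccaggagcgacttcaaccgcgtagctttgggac
The Col8a1 window is 60.8% G and C and holds 4 matches to GGGCGG, the core of a GC box, all on the opposite strand as CCGCCC and starting 170, 73, 66 and 23 bases before the start. The Col3a1 window is 35.2% G and C and holds 1 TATAAA starting 117 bases before the start, and the Col15a1 window holds none of the 3 motifs. Over 38 such windows from 35 collagen genes, GGGCGG or its complement was in 57.9%, against 32.7% of all 32851 windows in the RefSeq table. TATAAA was in 13.2% against 12.4%, and CCAAT in 34.2% against 33.8%. A match is only a run of letters, and its absence from a window says nothing about binding.

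The second comparison asked what weekly prednisone did to collagen RNA in infarcted hearts. In MI hearts 17 of the 25 tested collagen genes fell with prednisone and none rose, where 37.4% of all tested genes were called and 34.9% were called lower. The members' median change was -0.85 and that of all genes -0.41. Prednisone and vehicle libraries did not overlap, with prednisone lower, for 16 of the 25, where 42.6% of all tested genes did the same. These values share the MI vehicle hearts with the comparison above, so a high MI vehicle value enters both. Without the MI vehicle libraries Col8a2 and Col12a1 would not have passed the filter, so their falls are no added support. Col8a2 is in both the called and the non-overlapping count, and Col12a1 is in the called count.

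Collagen genes are long, and in this comparison long genes fell more than short ones throughout the table. The median change of all genes was -0.03 under 1000 bases, -0.25 from 1000 to 2000, -0.47 from 2000 to 4000, -0.67 from 4000 to 8000 and -0.69 above 8000 bases. Between 4000 and 8000 bases lay 17 of the 25 tested collagen genes, of which 13 fell, with a median of -0.88, and 65.4% of all 1886 genes in that range were called. The collagen share of calls is thus close to that of genes of like length. For MI against sham in vehicle hearts the same length range had 17.3% of its genes called, and 15 of its 17 collagen genes.

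**Figure D3:**
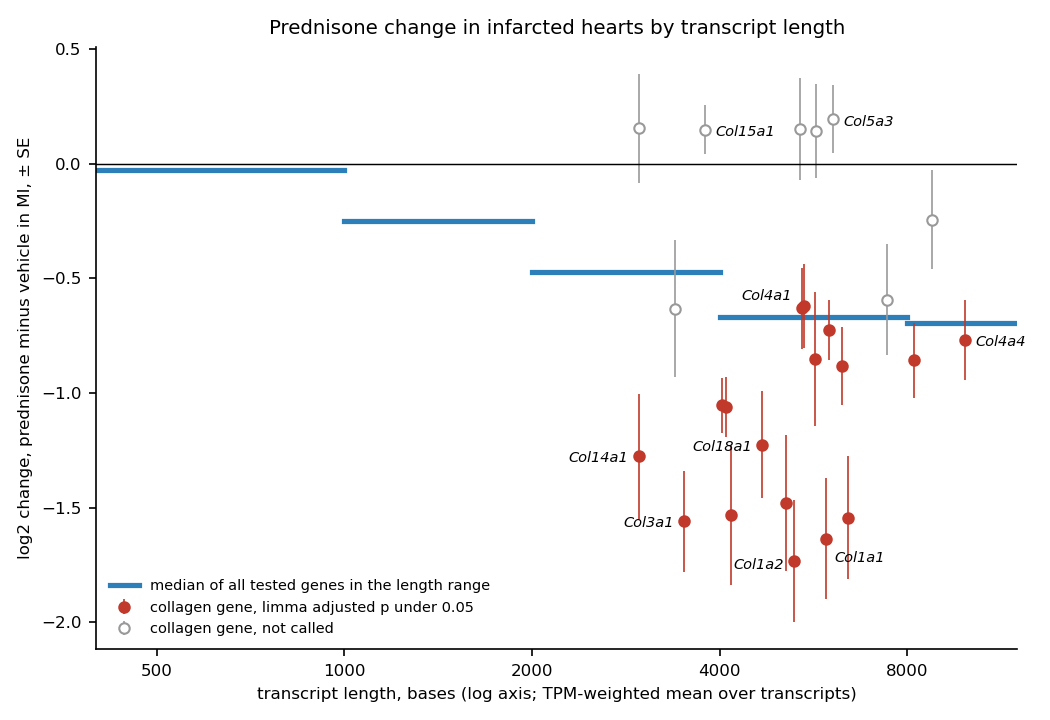
Log2 change with prednisone in MI hearts (y axis, ± SE) of the 25 tested collagen genes against transcript length in bases (log axis), with the median of all tested genes in 5 length ranges as bars. The bars step down from -0.03 to -0.69, and the type I and III genes lie below them.

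Fibrillar genes were among those that fell most. Col1a1 was at 20.7, 15.7 and 14.4 TPM in MI prednisone hearts, below the lowest MI vehicle heart at 40.1 TPM, a log2 change of -1.64 ± 0.26 (adjusted p = 0.0017). Col1a2 was at 33.0, 24.4 and 19.8 TPM, below the lowest MI vehicle value of 64.8 TPM, with a change of -1.73 ± 0.26 (adjusted p = 0.00146). Col3a1 was at 94.6, 82.2 and 57.5 TPM, below 186 TPM, with a change of -1.56 ± 0.22 (adjusted p = 0.00108). Each of these chains was thus back in or near the span of sham hearts. Col5a2 was at 7.67, 6.51 and 5.51 TPM (change -1.54 ± 0.27, adjusted p = 0.00223), and Col5a1 at 5.94, 5.75 and 5.95 TPM (change -0.86 ± 0.16, adjusted p = 0.00337). The other fibrillar chains tested were not called: Col5a3 changed by 0.19, Col11a2 by 0.15 and Col27a1 by 0.15.

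The networks fell as well. Col8a1 was at 7.55, 4.41 and 4.36 TPM after MI with prednisone (change -1.48 ± 0.30, adjusted p = 0.00413) and Col8a2 at 2.21, 1.66 and 0.807 TPM (change -1.53 ± 0.31, adjusted p = 0.00403). All prednisone hearts lay below all vehicle hearts, yet the Col8a2 means remained 4.53-fold above those of sham prednisone hearts. Col8a2 was tested only because MI vehicle hearts were high, so its fall is no added support. Col6a1 was at 19.7, 16.6 and 16.6 TPM (change -1.06 ± 0.13, adjusted p = 0.000768) and Col6a2 at 21.3, 18.6 and 18.7 TPM (change -1.05 ± 0.12, adjusted p = 0.000561). These type VI chains had the smallest adjusted p-values among the members. Col6a3, which joins them in the trimer, was at 9.10, 9.72 and 6.26 TPM and changed by 0.14 ± 0.21, with a 95% interval from -0.31 to 0.60.

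In the basement membrane, Col4a1 was at 76.2, 67.2 and 84.9 TPM in MI prednisone hearts (change -0.63 ± 0.18, adjusted p = 0.0175). Col4a2 was at 39.0, 33.3 and 49.1 TPM (change -0.88 ± 0.17, adjusted p = 0.00352). Col4a4, at 1.27, 1.24 and 1.22 TPM, changed by -0.77 ± 0.17, and Col4a5, at 4.52, 4.47 and 5.37 TPM, by -0.73 ± 0.13. These type IV changes lie around the medians of all genes in their length ranges. Col18a1 was at 3.35, 3.70 and 3.28 TPM (change -1.22 ± 0.23, adjusted p = 0.00323), all below the lowest MI vehicle heart at 7.01 TPM. Col15a1 was at 37.7, 35.8 and 31.9 TPM and overlapped the MI vehicle hearts, with a change of 0.15 ± 0.11 and a 95% interval from -0.09 to 0.38. Among FACITs Col14a1 fell by 1.28 on the log2 scale and Col12a1 by 0.85, while Col16a1 changed by -0.63 (adjusted p = 0.113).

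After the length correction 9 members were called, 4 lower and 5 higher, where 16.3% of 11513 genes were called. The lower ones were Col1a2 (-1.07, adjusted p = 0.0365), Col3a1 (-0.998, adjusted p = 0.0182), Col18a1 (-0.58) and Col6a2 (-0.45), and Col1a1 missed the threshold (adjusted p = 0.053). The higher ones were Col5a3, Col6a3, Col11a2, Col15a1 and Col27a1, whose uncorrected changes lay between 0.14 and 0.19. Without the MI prednisone libraries Col11a2 would not have passed the filter, so its call as higher is no added support. Median-ratio rescaling gave 11 lower members and 2 higher ones, Col5a3 and Col15a1, where 28.2% of all genes were called, and moved the split over all genes from 329 higher and 4588 lower to 1887 and 1817. With only the MI groups in the fit 7 members were called, where 6.14% of all genes were.

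Individual transcripts showed that the collagen genes did not change evenly along their length. Transcripts were placed by matching their exons to the longest coding transcript of the gene. Estimates for overlapping transcripts share reads and are not independent. For Col15a1 the longest coding transcript, of 5172 bases, was at 23.3, 28.0 and 26.6 TPM in MI vehicle hearts and at 8.08, 6.09 and 9.29 TPM in MI prednisone hearts (change -1.63, adjusted p = 0.000101). A coding transcript of 1755 bases that matches bases 3466 to 5167 of the long one was at 3.63, 4.25 and 0.379 TPM in MI vehicle and 28.4, 25.1 and 20.4 TPM in MI prednisone hearts (change 2.98, adjusted p = 0.00149). In sham hearts the short form never exceeded 5.94 TPM. In these estimates most Col15a1 TPM of MI prednisone hearts came from that 3′ form, and transcripts of 4000 bases or longer took 22.5% ± 6.14 of its TPM there against 83.8% ± 3.51 in MI vehicle hearts.

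Col4a1 and Col3a1 showed the same contrast between their ends. The 6615-base Col4a1 transcript changed by -0.91 (adjusted p = 0.00264). A 1170-base form at bases 4177 to 5519 of it went from 4.53, 11.2 and 5.09 TPM to 24.7, 22.5 and 20.4 TPM (change 1.66, adjusted p = 0.00108), while a 618-base form within bases 981 to 3303 went from 7.26, 18.1 and 13.9 TPM to 0, 0 and 2.35 TPM (change -3.15, adjusted p = 0.00142). The form nearer the 3′ end was thus higher with prednisone, and the form nearer the 5′ end lower. For Col3a1 the 5564-base transcript went from 129, 170 and 127 TPM to 49.6, 41.6 and 32.6 TPM (change -1.77, adjusted p = 0.000171). A 431-base retained-intron form at bases 1870 to 2286 fell from 22.3, 38.6 and 47.3 TPM to 0.782, 0.531 and 2.85 TPM (change -4.02, adjusted p = 0.000286). A 737-base form with its bases between 2737 and 4346 was at 32.6, 62.3 and 47.8 TPM in vehicle and 43.9, 39.9 and 21.9 TPM in prednisone hearts and was not called (change -0.43, adjusted p = 0.232). That 737-base form stayed above sham prednisone hearts, where it was at 16.2, 18.9 and 21.01 TPM (MI against sham change 0.83, adjusted p = 0.0477).

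Col6a3, Col16a1 and Col4a5 also had 3′ forms whose means were highest in MI prednisone hearts. In Col6a3 a 646-base retained-intron form at the 3′ end, bases 9832 to 10095 of 10106, was at 1.44, 2.97 and 1.71 TPM in MI vehicle and 5.85, 7.12 and 3.67 TPM in MI prednisone hearts and was not called (change 1.101, adjusted p = 0.0615). The 9001-base coding form of Col6a3 changed by -0.56 (adjusted p = 0.0159). An 833-base 3′ form of Col16a1 rose by 1.64 (adjusted p = 0.0075), and a 3511-base 3′ form of Col4a5 by 1.09 (adjusted p = 0.00681). Transcripts passed the same filter as genes, and both of these forms reached 1 TPM only in MI prednisone hearts. They were tested only because that group was high, so their calls are no support for a rise. Col1a1 and Col6a1 had 99.8% and 99.6% of their TPM in a single long transcript, so no abundant shorter form can be set beside it.

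**Figure D4:**
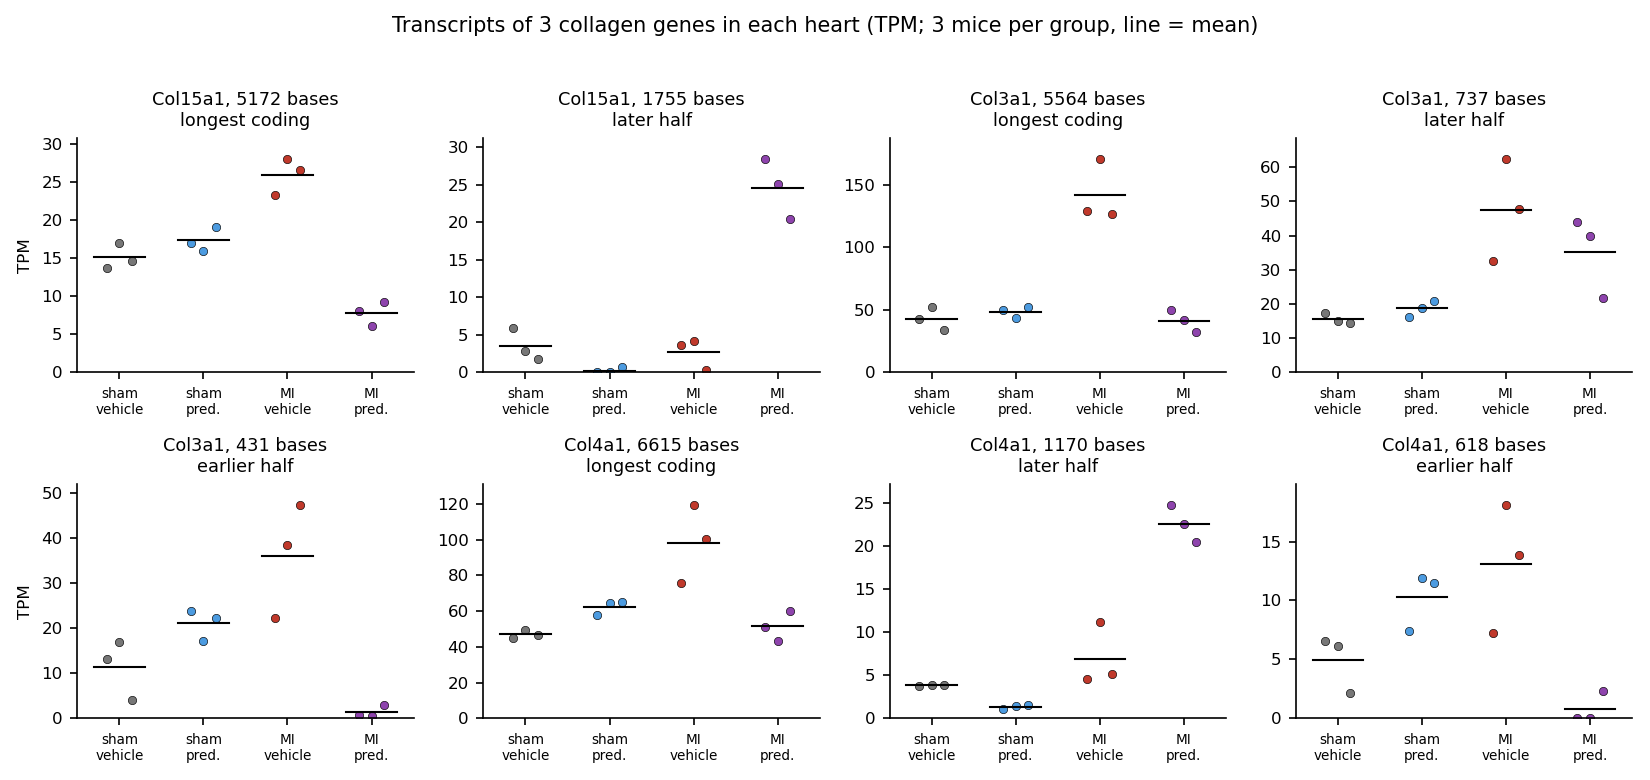
TPM (linear axes from 0) of 8 transcripts of Col15a1, Col3a1 and Col4a1 in each heart; points are mice, lines are group means, and titles give length and the part of the longest coding transcript that is matched. In MI prednisone hearts the long forms and those toward the 5′ end are low, and the 1755-base and 1170-base forms are at 20.4 to 28.4 TPM.

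Counted over all collagen transcripts tested, 22 of 28 of at least 4000 bases fell with prednisone after MI and none rose, where 27.1% of all tested transcripts were called lower and 5.92% higher. Among those that fell, the 8554-base Col4a3 and 5206-base Col16a1 forms reached 1 TPM only in MI vehicle hearts. The 4332-base Col8a2, 5138-base Col16a1 and 4791-base Col18a1 forms also would not have passed the filter without those hearts. The falls of all these forms are no added support. Of 12 under 2000 bases, 5 lay toward the 5′ end, with 3 lower and none higher, and 7 toward the 3′ end, with 3 higher and 1 lower. The Col16a1 form among those 3 higher passed the filter only through MI prednisone hearts. Shares over all genes rest on the same filter. Across the whole table, among short transcripts of all genes with a long coding form, 37.4% of 1999 lying toward the 5′ end were lower and 2.00% higher, and 30.1% of 602 lying toward the 3′ end were higher and 6.15% lower. In sham hearts neither class had a called transcript in this drug comparison. In the MI prednisone libraries, then, the relation of values to transcript length and position moved with the fall of collagen RNA, and its part in the fall was not tested beyond the length correction above.

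The third comparison asked how infarcted hearts differed from sham hearts when both received prednisone. Of the 25 tested collagen genes 2 were higher and none lower, where 16.8% of all tested genes were called and 2.73% were called higher. The higher genes were Col15a1 (change 0.78 ± 0.11, adjusted p = 0.00185) and Col6a3 (change 0.71 ± 0.21, adjusted p = 0.038). Col15a1 was at 19.4, 19.4 and 21.4 TPM in sham prednisone hearts and Col6a3 at 5.49, 4.27 and 4.25 TPM, with every MI prednisone heart higher in both. Over the 25, the libraries did not overlap, with MI higher, for 6, where 12.9% of all tested genes did the same. Among these 6, Col8a2, Col12a1 and Col27a1 needed infarcted hearts to pass the filter. The libraries did not overlap, with MI lower, for Col4a4, Col4a5, Col6a6 and Col18a1, 4 of the 25, where 32.2% of all tested genes did the same. Taken by the longest Col15a1 transcript alone, the change was -1.08 (adjusted p = 0.00101), the opposite direction, and by the most abundant Col6a3 transcript it was -0.26. With the most abundant or the longest coding transcript of each gene, 2 members were called and both were lower, Col15a1 and Col4a5 (-1.11, adjusted p = 0.0129). Of all genes taken by their most abundant transcript 18.0% were called. The Col6a3 call was lost when any library of the comparison was left out other than MI prednisone replicate 3.

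The main fibrillar genes, those of types I and III, overlapped sham hearts under prednisone. In sham prednisone hearts Col1a1 was at 16.0, 13.6 and 15.9 TPM, Col1a2 at 27.0, 21.4 and 25.5 TPM and Col3a1 at 93.3, 82.6 and 98.3 TPM. The changes were 0.14, 0.04 and -0.25. Their 95% intervals, from -0.44 to 0.72 for Col1a1, -0.54 to 0.62 for Col1a2 and -0.73 to 0.23 for Col3a1, leave room for differences of those sizes. Another fibrillar gene, Col27a1, was at 1.09, 0.750 and 1.22 TPM in sham prednisone and 2.18, 2.43 and 1.48 TPM in MI prednisone hearts, without overlap, and was not called (change 0.58, adjusted p = 0.101). Col8a2 kept the largest remaining difference at 0.89 ± 0.31 but missed the threshold (adjusted p = 0.0693), and Col8a1 differed by 0.56 ± 0.30. Under the length correction 6 genes were called, all higher, where 12.3% of genes were: Col4a3, Col6a3, Col8a2, Col12a1, Col15a1 and Col27a1. Median-ratio rescaling called 5 of these 6, without Col4a3, where 25.4% of all genes were called, and moved the split over all genes from 359 higher and 1854 lower to 1422 and 1924. With only the 2 groups in the fit 5 were higher and 1 lower, where 24.8% of all genes were called. Col4a3, Col8a2, Col12a1 and Col27a1 needed infarcted hearts to pass the filter, so their calls as higher in these fits are no added support.

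In sham hearts prednisone changed no collagen gene by limma's adjusted p, with 2 of 25 at an unadjusted p under 0.05. Those were Col5a3 (change 0.43, unadjusted p = 0.014) and Col4a1 (change 0.41, unadjusted p = 0.038), and 0.114% of all tested genes were called. The members' median change was 0.11 and that of all genes 0.07. Prednisone and vehicle sham libraries did not overlap for 4 tested genes, all higher with prednisone, where 15.6% of all genes were so. Intervals were wide enough to hold a moderate change: for Col1a1 the 95% interval ran from -0.49 to 0.68, and for Col3a1 from -0.10 to 0.87.

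Sham prednisone hearts held 67.5, 78.7 and 82.4 TPM of Col4a1, 41.2, 48.8 and 47.4 of Col4a2, 1.46, 1.56 and 1.51 of Col4a4, and 6.49, 6.08 and 6.05 of Col4a5. They held 5.72, 5.69 and 6.48 TPM of Col5a1, 6.46, 5.87 and 7.43 of Col5a2, 19.1, 17.5 and 20.9 of Col6a1, and 22.4, 20.9 and 24.2 of Col6a2. Col8a1 was at 3.44, 2.92 and 3.47 TPM there, Col8a2 at 0.423, 0.236 and 0.372 TPM, and Col18a1 at 6.19, 4.16 and 5.21 TPM. Of these 11 genes Col4a1, Col4a2 and Col4a5 had all drug-treated sham hearts above all vehicle-treated ones, as 15.6% of all tested genes did. All 11 were called in the surgery by drug test below, which uses the same sham values, so they are a selected set.

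The prednisone change in MI hearts was then tested against that in sham hearts. It was lower in MI for 14 of the 25 tested genes and higher for none, where 21.3% of all tested genes were called and 20.7% were called lower. The 14 comprised 5 fibrillar, 4 type IV, 2 type VI and 2 type VIII genes and Col18a1, with Col3a1 at -1.94 ± 0.31 (adjusted p = 0.0063) the farthest from 0. Col8a2 is among the 14, though it would not have passed the filter without the MI vehicle libraries. Differences for Col15a1 and Col6a3 were 0.19 and -0.02. In the range from 4000 to 8000 bases 45.7% of all genes were called. Under the length correction limma called no member (9 at an unadjusted p under 0.05), where 2.03% of genes were called. Under median-ratio rescaling 2 were called, Col3a1 and Col18a1, where 8.67% of all genes were, and the split over all genes moved from 71 higher and 2726 lower to 564 and 577.

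Ratios of partner chains within a library do not depend on scaling, and they were compared in 24 exact two-sided permutation tests of 3 against 3 mice, in which no p can go below 0.1. Col1a1 to Col1a2 was steady, at 0.591 to 0.728 over the 12 libraries. Col5a1 to Col5a2 was 0.691, 0.442 and 0.543 in MI vehicle hearts and 0.775 or higher in the other 9 libraries (MI against sham in vehicle, exact p = 0.1, adjusted 0.24). Col6a3 to Col6a1 was 0.462, 0.586 and 0.378 in MI prednisone hearts and at most 0.288 elsewhere (prednisone against vehicle in MI, exact p = 0.1, adjusted 0.24). With the most abundant transcript of each gene the log2 difference of that ratio was 0.38, down from 1.26 with summed transcripts. Col4a1 to Col4a2 was 1.95, 2.02 and 1.73 in hearts given prednisone after MI, above the 1.52, 1.71 and 1.53 of those given vehicle. The log2 difference of 0.26 became -0.082 with the most abundant transcripts. No ratio passed the adjusted threshold.

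**Figure D5:**
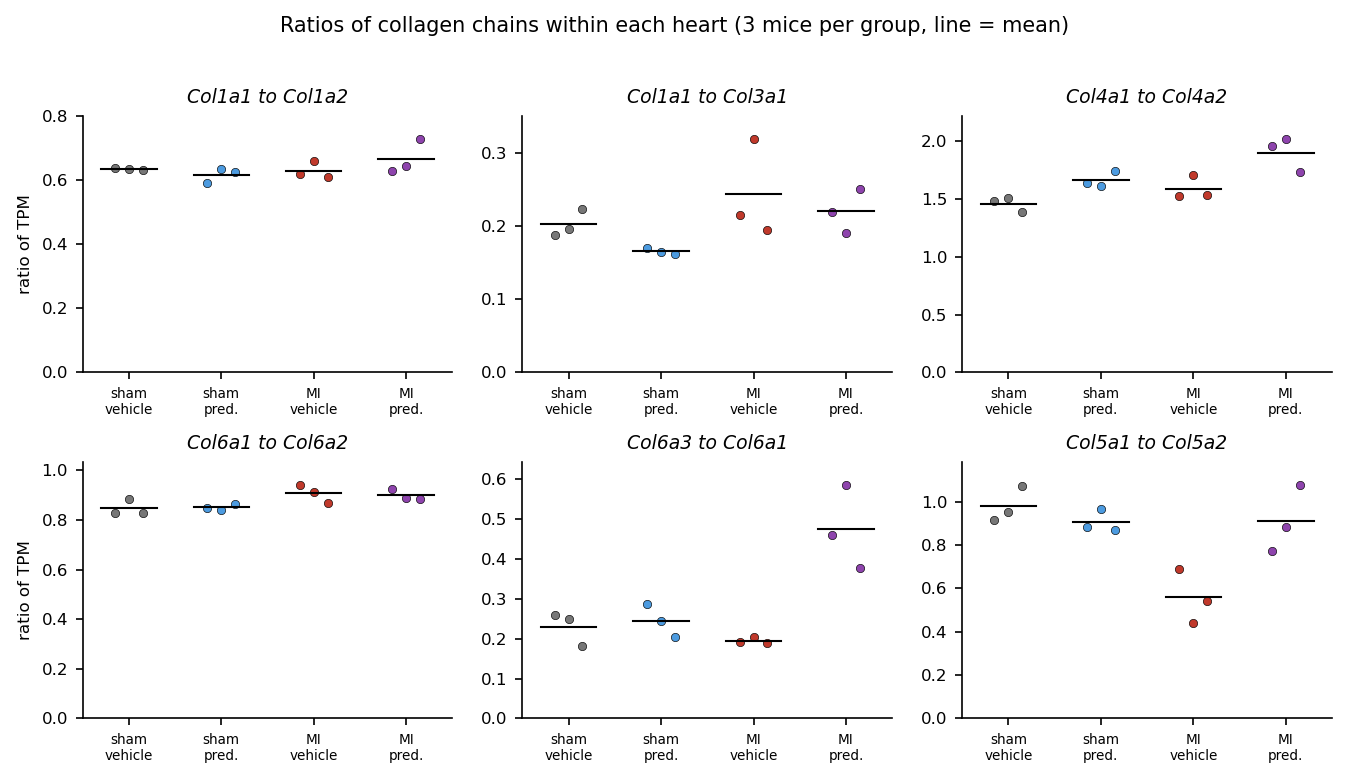
Ratio of TPM (linear axes from 0) for 6 pairs of collagen chains in each heart; points are mice and lines are group means. Col5a1 to Col5a2 is lowest in the 3 MI vehicle hearts and Col6a3 to Col6a1 highest in the 3 MI prednisone hearts.

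Genes that make and crosslink collagen were counted in the same comparisons. Of 40 listed biosynthesis genes 35 were tested, and 23 rose and none fell after MI in vehicle hearts, where 15.1% of all tested genes rose. Lox, which crosslinks collagen fibrils, rose from 1.41, 1.79 and 1.06 TPM to 5.50, 18.4 and 8.99 TPM (change 2.17), and Fn1, the fibronectin on which collagen assembles, by 2.12. With prednisone after MI 14 of the 35 fell and none rose, a share near the 34.9% of all tested genes that fell. Those with the largest falls were Fn1 (-1.74), Lox (-1.73) and Loxl2 (-1.52), a further crosslinking oxidase. Sec23a, a coat protein that carries procollagen out of the endoplasmic reticulum, fell by 1.39 on the log2 scale and was also below sham under prednisone (-1.25). Pcolce, which enhances removal of the procollagen tail, and Crtap, part of the prolyl 3-hydroxylation complex, were higher than sham under prednisone, by 0.79 and 0.71. The medians of the list were 0.70 and -0.44 in these comparisons, beside 0.39 and -0.41 for all genes.

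Of 13 listed collagen receptors and clearance genes 9 were tested. After MI in vehicle hearts 7 of the 9 rose, beside 15.1% of all tested genes, and with prednisone after MI 8 of the 9 fell, beside 34.9%. Ctsk, a collagen-degrading cathepsin, rose by 1.37 and fell by 1.25 on the log2 scale, and Mmp14, a membrane-bound collagenase, rose by 1.32 and fell by 1.21. Mmp2, a gelatinase, rose by 1.26. The collagen-binding receptor kinase Ddr1 rose by 0.91 and changed by -1.23 with prednisone. Under prednisone the integrin chains Itga1 and Itgb1 were below sham, by -0.69 and -0.57.

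Markers of several cell types were counted beside collagen RNA. Of all tested genes 15.1% rose and 0.904% fell after MI in vehicle hearts, and 2.5% rose and 34.9% fell with prednisone after MI. These shares are the background for each count from those comparisons that follows. Of 8 fibroblast markers 7 rose after MI and 5 fell with prednisone after MI; their sum was 903 to 1153 TPM in sham vehicle, 959 to 1156 in sham prednisone, 1598 to 1832 in MI vehicle and 772 to 1295 TPM in MI prednisone hearts. Of 7 tested activated fibroblast markers 6 rose and 5 fell, with sums of 61.4 to 78.5, 69.6 to 73.1, 176 to 441 and 106 to 209 TPM in that order of groups. Unlike type I collagen, 4 of these 7 were still above sham under prednisone, where 2.73% of all tested genes were called higher. Those 4 were Postn by 1.87, Comp by 1.82, Cilp by 1.49 and Ltbp2 by 1.49. Macrophage markers rose for 7 of 8 and fell for 5 of 8, with sums of 132 to 166, 143 to 188, 245 to 374 and 134 to 258 TPM. Epicardial and mesothelial markers, whose cells also make collagen, rose for 3 of 6 and fell for 4 of 6, with sums of 27.6 to 66.3, 47.2 to 59.4, 88.3 to 215 and 28.7 to 131 TPM.

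Other cell types moved less evenly. Endothelial markers rose for 5 of 8 after MI and fell for 3 of 8 with prednisone, with sums of 740 to 963 TPM in sham vehicle and 930 to 1814 TPM in the MI groups. Most of that sum was 1 gene, Fabp4, at 557 to 752 TPM in sham vehicle hearts and 1583 of 1814 TPM in MI prednisone replicate 2. Cardiomyocyte markers fell for 3 of 8 after MI and rose for 3 of 8 with prednisone after MI, and 3 of 5 atrial markers rose with prednisone after MI, with sums of 2813 to 4122 TPM in MI vehicle and 4358 to 6191 TPM in MI prednisone hearts. Mural cell markers rose for 2 of 8 after MI; with prednisone 1 rose and 3 fell. By limma 0 of 4 tested Schwann cell markers and 0 of 4 adipocyte markers were called in any comparison. Ncam1 after MI in vehicle hearts was the 1 value at an unadjusted p under 0.05. Adipocyte markers differed widely between single libraries: they summed to 583, 15.4 and 1359 TPM in MI vehicle hearts, 221, 310 and 15.4 TPM in sham vehicle hearts and 272, 777 and 231 TPM in MI prednisone hearts. No listed marker was at 0 in all 3 libraries of a group. The part of these cell types in the collagen changes was not tested.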

How the data were processed

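The authors deposited TPM values for 105129 transcripts in 12 libraries, and the total is 1000000 in each. Stranded mRNA libraries were made from column-purified RNA, per the labels' protocols. Trimmomatic, HISAT2, kallisto and mm10 are named, per the submitters' processing notes, without versions or roles, and the program that gave the TPM values is not given in the sources used here. TPM carries no read depth, so precision rests on 3 mice per group. TPM was summed to genes by symbol, filtered at 1 TPM in at least 3 of 12 samples, and fitted as log2(TPM + 1) with limma 3.58.1 in R 4.3.3 (4 group means, trend), tested on simulated data. Samples were grouped by title. Positions and lengths came from GENCODE M21 (GRCm38), which held 94.7% of the rows and 208 of 216 collagen rows. The length correction subtracts from each library a loess curve (span 0.5) of deviations from gene means against log10 length. Collagen genes and gene lists were chosen with earlier results of these data known. Values in every heart are given for members with a mean of at least 20 TPM, those called in the surgery by drug test, and the 3 largest called rises and falls of each other comparison; other lists are given as counts with the called genes of largest change. Alternatives were median-ratio rescaling, leaving out globin, mitochondrial and nuclear-copy rows, other filters and pseudocounts, no trend, single transcripts, 2-group fits, a replicate block and leaving out each mouse. The longest coding transcript and centring without length were added after seeing the data.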

Additional observations from a re-analysis of the deposited data

Results flagged for a closer look

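The prednisone change in MI hearts was below that in sham hearts, by limma's test of the difference itself, for 14 collagen genes. On the log2 scale these differences were -1.73 for Col1a1, -1.87 for Col1a2, -1.94 for Col3a1, -0.95 for Col5a1 and -1.74 for Col5a2 among the fibrillar genes. In type IV they were -1.04 for Col4a1, -1.11 for Col4a2, -0.85 for Col4a4 and -0.88 for Col4a5. They were -1.17 for Col6a1, -1.16 for Col6a2, -1.51 for Col8a1, -1.47 for Col8a2 and -1.51 for Col18a1. Col8a2 would not have passed the filter without the MI vehicle libraries, so its call is no added support. The median of all tested genes was -0.48 in the same test. For genes of 4000 to 8000 bases it was -0.78, and above 8000 bases it was -0.83. Under the length correction no collagen gene was called. With groups of 3 mice no test for an outlying mouse was made.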

How the results depend on the processing

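Percentages in brackets are the shares of all tested genes called in the same fit. They are not given here for fits leaving out a mouse. The count of collagen genes called for MI against sham in vehicle hearts was 21 (16.0%). It became 9 with median-ratio rescaling (6.46%) and 12 of 21 tested with the longest coding transcript. With only the 2 groups it was 0 (0.0152%), with 22 members at an unadjusted p under 0.05. The length correction gave 10 (5.36%), that correction with the replicate block 2 (0.591%), and centring alone 11 (6.44%). Leaving out a mouse gave 8 to 22. For MI against sham under prednisone it was 2 (16.8%). It became 5 with rescaling (25.4%), 4 of 32 tested without mitochondrial, nuclear-copy and globin rows (24.8%), and 1 of 44 without a filter (7.25%). With only the 2 groups it was 6 (24.8%), with the length correction 6 (12.3%), with that and the block 4 (7.47%), and with centring 5 (24.5%). Leaving out a mouse gave 1 to 3. It was again 2 with the most abundant transcript (of 24 tested, 18.0%) or the longest coding transcript (of 21 tested). Both were then lower (Col15a1 and Col4a5), where the main calls were both higher. It fell to 1 without sham prednisone replicate 1, 2 or 3 or MI prednisone replicate 1 or 2. For prednisone against vehicle in MI it was 17, all lower (37.4%). It became 7, all lower, with only the 2 groups (6.14%). With the length correction it was 9, 5 higher and 4 lower (16.3%), and with that and the block 6, 4 higher and 2 lower (11.2%). Leaving out a mouse gave 15 to 19. For the interaction it was 14 (21.3%). It became 2 with rescaling (8.67%) and 3 with centring (8.70%). With the length correction it was 0 without the block (2.03%) or with it (0.903%), with 9 at an unadjusted p under 0.05 each time. Leaving out a mouse gave 10 to 16. In sham hearts the prednisone count was 0 under each alternative. The cause of these shifts was not tested.

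With the most abundant transcript of each gene the log2 differences of ratios were -0.10 for Col1a1 to Col3a1 with prednisone in sham, -0.10 and -0.082 for Col4a1 to Col4a2 in MI against sham under prednisone and in prednisone against vehicle in MI, 0.16 for Col6a1 to Col6a2 in MI against sham under prednisone, -0.28 for Col5a1 to Col5a2 there, and -0.45, -0.23 and 0.38 for Col6a3 to Col6a1 in MI against sham with vehicle, the same with prednisone, and prednisone in MI. Col1a1 to Col3a1 in MI against sham under prednisone was 0.58 with the length correction. The changes that turned direction were Col6a3 in MI against sham under prednisone to -0.26 with the most abundant transcript, Col15a1 there to -1.08 with that or the longest coding transcript, and Col4a1 with prednisone in MI to 0.040 with the length correction, with or without the block. Mice with the same number in different groups are different animals, and their deviations correlated at -0.37 to 0.00 on average, so the numbers do not pair them. The replicate block alone gave 19, 2, 16, 0 and 12 calls in the 5 comparisons. Of all tested genes 8.03%, 14.4%, 33.7%, 0.0532% and 17.9% were called in the same order.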
